A study of Saccharomyces cerevisiae with 9 samples.

Results

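Sulfate assimilation and methionine synthesis were followed in budding yeast through 10 genes out of 5667 measured. The members were chosen by name from the pathway, with earlier results of these data known. They were MET3 (YJR010W), MET14 (YKL001C), MET16 (YPR167C), MET5 (YJR137C), MET10 (YFR030W), MET2 (YNL277W), MET6 (YER091C), SAM1 (YLR180W), SAM2 (YDR502C) and MET4 (YNL103W), each measured by 1 probe set. Cells of the BY4741 background, a haploid laboratory strain, were grown at 30 °C in YPD, a rich medium, and harvested 5 days after inoculation. Non-restricted cultures (NR) had 2% glucose, calorically restricted cultures (CR) had 0.5% glucose, and rapamycin cultures (RM) had 2% glucose with 100 nM rapamycin, a drug that blocks TOR complex 1. The labels give 3 biological replicates per group, with 1 GeneChip Yeast 2.0 array apiece, and all groups share the strain, its deletions and the harvest day.

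Yeast takes up sulfate, activates it with ATP, reduces it to sulfite and then to sulfide, and joins the sulfide to a carbon chain made from homoserine to give homocysteine. Homocysteine is methylated to methionine, and methionine is joined with ATP to give S-adenosylmethionine (SAM), the donor of methyl groups. The activator Met4 drives most genes of the route when sulfur amino acids run short. It is brought to DNA by Cbf1, Met31 and Met32, with Met28 as a cofactor. It is held in check by the ubiquitin ligase subunit Met30 when sulfur is plentiful. BY4741 lacks MET17, the enzyme that joins sulfide to the carbon chain, and so depends on methionine in the medium.

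The deleted genes matched the strain label. MET17 gave a log2 signal of 1.18 to 1.67 over the 9 arrays, URA3 of 0.71 to 1.03 and LEU2 of 1.71 to 2.01. HIS3, of which part remains in this strain, gave 5.38 to 6.83. Array medians lay between 6.86 and 6.93. Spread differed between groups: correlations among arrays were 0.997 to 0.998 in CR, 0.98 to 0.995 in RM and 0.929 to 0.977 in NR, and the median SD of the 10 genes was 0.0477, 0.178 and 0.42. Whether the closely matched CR arrays come from separate cultures could not be checked beyond the labels, and if they do not, the p-values of CR and its lack of overlap with other groups would partly measure technical spread. NR replicate 3 stood farthest from its group, and it was the NR array farthest from the group mean for 6 of the 10 genes. The alpha-factor gene MF(ALPHA)1, a marker of the opposite mating type, read 6.62 there and 3.50 on each of the other NR arrays. The other alpha-factor gene, MF(ALPHA)2, was lowest there among NR arrays, at 3.73 against 4.42 and 4.12. STE3, also an alpha marker, read 5.61 there against 5.12 and 4.63, and 6.78 to 6.85 in CR. The a-factor gene MFA1 read 10.75 there against 8.49 and 9.13. The a-type markers MFA2, STE2 and BAR1 were also highest there among NR arrays, at 10.27, 8.69 and 7.43. The part of that array in each result was measured by leaving it out.

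Under low glucose MET14, of sulfate activation, and the activator gene MET4 rose, while MET6, SAM1 and SAM2, which make methionine and SAM, fell. The sulfite reductase subunits between these steps had means of opposite sign. A gene was called at a limma adjusted p under 0.05 and a change of at least 2-fold. By this call 2 of the 10 genes were higher in CR than in NR and 3 lower, 50% of them, where 37.8% of all 5716 probe sets were called (17.7% higher, 20.0% lower). The adjusted p alone was passed by 9 of the 10, and by 68.9% of all probe sets. The median log2 change was -0.18 for the 10 genes and 0.02 for all probe sets, with the 10 genes ranging from -2.76 to 1.99.

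Rapamycin left most of these genes short of the call. Between RM and NR, 1 of 10 genes was called, SAM1, which fell. That share of 10% stood beside 8.64% of all probe sets, with 3.97% higher and 4.67% lower. Without NR replicate 1 the count of probe sets called rose from 494 to 789, and that of the list genes described further on from 5 to 8. The adjusted p alone was passed by 5 genes, against 37.1% of all probe sets. In the direct comparison of CR with RM, 4 of 10 genes were called, with MET14 and MET4 higher and MET2 and MET6 lower in CR. There the share was 40%, against 26.1% of all probe sets (12.6% higher, 13.5% lower), and 5 genes passed the adjusted p alone, against 56.2% of all probe sets. CR over NR and RM over NR use the same NR arrays, and the direct comparison uses the same CR and RM arrays as the others.

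**Figure D1:**
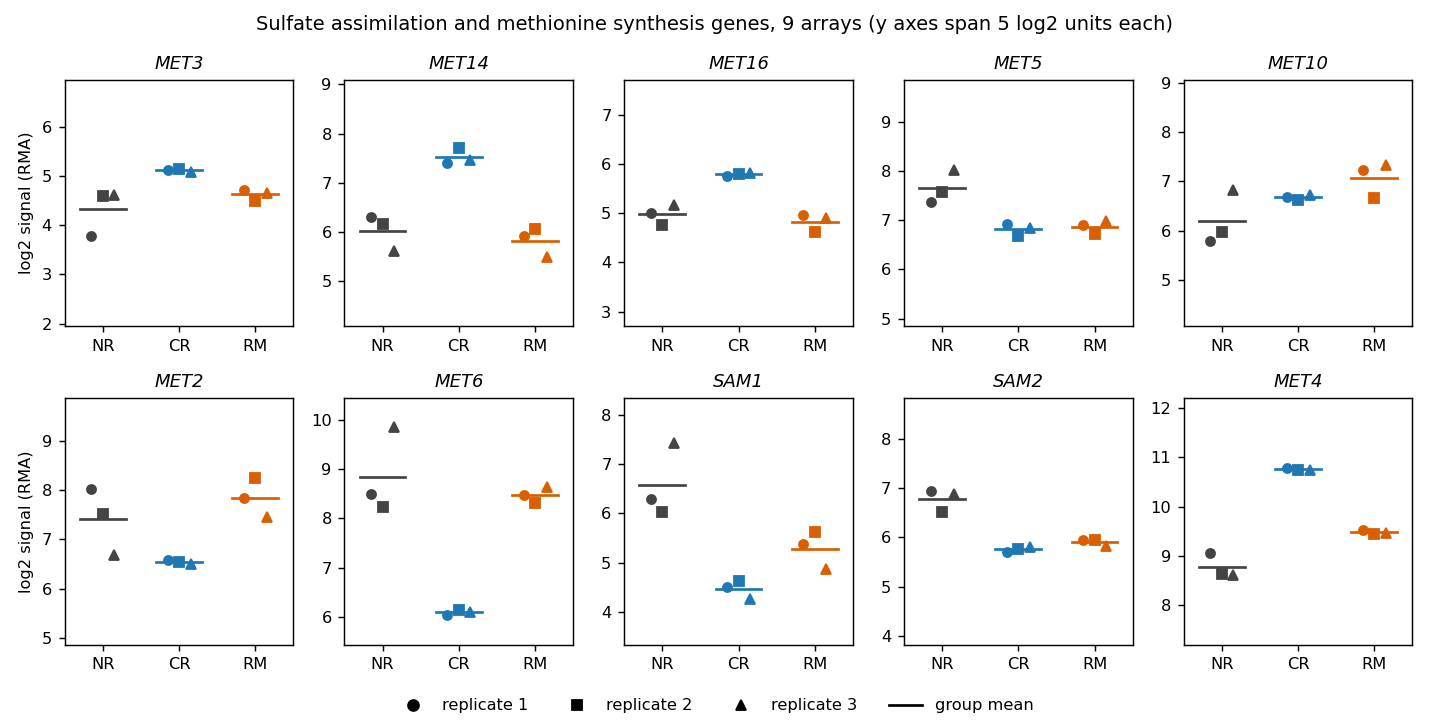
Log2 signal (RMA) of the 10 genes on each of the 9 arrays, by group, with circles, squares and triangles for replicates 1, 2 and 3 and a line for the mean of 3 arrays. Every y axis spans 5 log2 units. CR arrays of MET3, MET14, MET16 and MET4 lie above all NR and RM arrays, and those of MET2, MET6, SAM1 and SAM2 lie below all of them. NR replicate 3 is the highest array for MET6 at 9.85 and SAM1 at 7.42.

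MET3, MET14 and MET16 carry sulfate to sulfite, and all 3 had their highest mean in CR. MET3 encodes ATP sulfurylase, which makes adenylyl sulfate. Its log2 signal was 3.77, 4.58 and 4.60 in NR, 5.12, 5.13 and 5.07 in CR, and 4.71, 4.48 and 4.66 in RM. The CR arrays lay above all others, and the RM arrays overlapped with the upper NR arrays. CR exceeded NR by 0.79 on the log2 scale (SE 0.21, 1.73-fold, adjusted p = 0.00744), short of the 2-fold limit. CR over RM was 0.49, with an adjusted p of 0.072 in the fit over 9 arrays and 0.00152 when only the 6 arrays of these groups were fitted.

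MET14, the kinase that adds a second phosphate to adenylyl sulfate, rose. It read 6.31, 6.17 and 5.61 in NR, 7.40, 7.70 and 7.47 in CR, and 5.92, 6.07 and 5.49 in RM. All CR arrays were at least as high as 7.40, above every NR and RM array, while NR and RM overlapped. CR over NR was 1.49 (SE 0.21, 2.82-fold, adjusted p = 0.000212), and CR over RM was 1.70 (3.25-fold, adjusted p = 0.000143). RM over NR was -0.21, with a 95% interval of -0.69 to 0.28.

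MET16 encodes the reductase that releases sulfite. Its signal was 5.01, 4.76 and 5.16 in NR, 5.76, 5.79 and 5.81 in CR, and 4.97, 4.61 and 4.90 in RM, so the order of groups was that of MET14. The differences were smaller, at 0.81 for CR over NR (SE 0.14, 1.76-fold, adjusted p = 0.000748) and 0.96 for CR over RM (1.95-fold, adjusted p = 0.000389), and neither reached 2-fold. Without RM replicate 1, CR over RM was 1.03 (adjusted p = 0.00139) and was called.

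The subunits of sulfite reductase, which makes sulfide, had mean changes against NR of opposite sign, and the difference between them was not tested. MET5, the beta subunit, read 7.37, 7.57 and 8.02 in NR, 6.93, 6.68 and 6.85 in CR, and 6.90, 6.71 and 6.99 in RM. Both treatments lay below every NR array and overlapped with each other. MET5 was lower by 0.84 in CR (adjusted p = 0.00202) and by 0.79 in RM (adjusted p = 0.00925) on the log2 scale, in each case under 2-fold, and CR over RM was -0.05 with a 95% interval of -0.44 to 0.34.

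For MET10, the alpha subunit, the means lay the other way. It read 5.80, 5.98 and 6.82 in NR, 6.68, 6.63 and 6.72 in CR, and 7.23, 6.67 and 7.33 in RM. NR replicate 3 lay above the CR arrays and within the RM range, whereas the other NR arrays lay below all treated ones. RM over NR was 0.87 (SE 0.26, adjusted p = 0.0308), short of 2-fold, and with only the 6 arrays of RM and NR the adjusted p was 0.0836. Without NR replicate 3 it was 1.18 (adjusted p = 0.00199), and without RM replicate 2 it was 1.07 (adjusted p = 0.0279), both called. With any other array left out it was 0.67 to 0.87, with adjusted p of 0.0503 to 0.0971. CR over NR was 0.48 (adjusted p = 0.135), and 0.79 without NR replicate 3 (adjusted p = 0.00447).

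MET2, homoserine O-acetyltransferase, prepares the carbon chain that takes up sulfide. Its signal was 8.02, 7.52 and 6.69 in NR, 6.58, 6.54 and 6.49 in CR, and 7.84, 8.24 and 7.45 in RM. The CR arrays lay close together below all others, and NR spread over 1.32 log2 units. MET2 was lower in CR than in RM by 1.31 on the log2 scale (SE 0.31, 2.47-fold, adjusted p = 0.00552), which was called. CR over NR was -0.87 (adjusted p = 0.0302), short of 2-fold, and -1.23 without NR replicate 3 (adjusted p = 0.00114), which was called. It was -0.57 (adjusted p = 0.0945) without NR replicate 1, and the adjusted p also exceeded 0.05 without NR replicate 2 (0.0818) or any 1 of the CR replicates (0.063 to 0.0738).

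MET6 had the largest change of the 10 genes in CR over NR. It encodes the cobalamin-independent methionine synthase, which passes a methyl group from folate to homocysteine. Its log2 signal was 8.49, 8.23 and 9.85 in NR, 6.03, 6.14 and 6.10 in CR, and 8.48, 8.31 and 8.64 in RM. Every CR array lay more than 2 log2 units below every NR and RM array, and RM lay within the range of NR. MET6 fell 6.78-fold in CR against NR (log2 change -2.76, SE 0.35, adjusted p = 9.71e-05) and was 5.23-fold lower in CR than in RM (log2 change -2.39, adjusted p = 0.000354). Without NR replicate 3 the change against NR was -2.26 (adjusted p = 2.08e-06). RM over NR was -0.37, and 0.12 without that array, with adjusted p of 0.415 and 0.485.

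SAM1 and SAM2, paralogues that both encode SAM synthetase, were lower in both treatments. SAM1 read 6.29, 6.03 and 7.42 in NR, 4.51, 4.63 and 4.25 in CR, and 5.37, 5.61 and 4.87 in RM. The 3 groups did not overlap, with NR highest and CR lowest. SAM1 fell 4.33-fold in CR (log2 change -2.12, SE 0.34, adjusted p = 0.000403) and 2.46-fold in RM (log2 change -1.30, adjusted p = 0.0173), while CR over RM was -0.82 (adjusted p = 0.0635). With only the 6 arrays of CR and RM that adjusted p was 0.00728, and the change stayed under 2-fold. The call in RM was lost without NR replicate 3 (-0.88, adjusted p = 0.0137), without RM replicate 3 (-1.09, adjusted p = 0.0558) and in a fit of the 6 arrays of RM and NR alone (adjusted p = 0.0519). Without RM replicate 3, CR over RM was -1.02 (adjusted p = 0.0478) and was called.

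SAM2 read 6.95, 6.51 and 6.89 in NR, 5.70, 5.77 and 5.80 in CR, and 5.95, 5.95 and 5.83 in RM. All treated arrays lay below all NR arrays, and CR lay just below RM. The change was -1.02 in CR (SE 0.14, 2.03-fold, adjusted p = 0.000131), at the edge of the 2-fold limit, and -0.87 in RM (1.83-fold, adjusted p = 0.00234), under it. In CR the change was -1.0 without CR replicate 1, -0.94 without NR replicate 1 and -0.97 without NR replicate 3, in each case no longer called, with adjusted p from 0.000243 to 0.00117. In RM it was -1.01 without NR replicate 2 (adjusted p = 0.00177), which was called.

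The difference between the paralogues was set apart in CR, but 3 arrays a group cannot reach an exact p under 0.1. The log2 signal of SAM2 minus that of SAM1 was -0.52 to 0.65 in NR, 1.14 to 1.55 in CR and 0.34 to 0.96 in RM. CR lay above NR by 1.09 and above RM by 0.66 with no overlap, each with p = 0.1 in a two-sided exact permutation test. RM exceeded NR by 0.43 (exact permutation p = 0.5), and by 0.06 without NR replicate 3, without which the difference of CR from NR was 0.73. Paralogues of similar sequence can share signal on an array. The probe sequences were not used here, so cross-hybridisation was not tested.

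**Figure D2:**
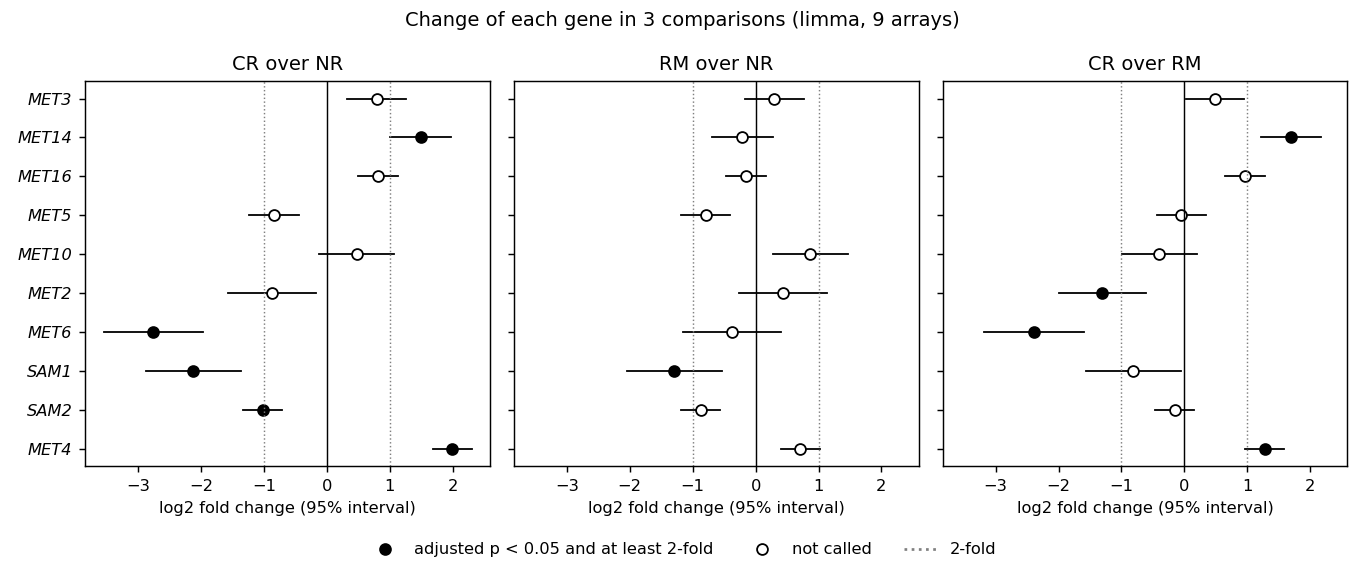
Log2 fold change of each of the 10 genes in 3 panels, CR over NR, then RM over NR, then CR over RM, with 95% intervals from the limma fit over 9 arrays. Filled points were called at an adjusted p under 0.05 and at least 2-fold, and dotted lines mark 2-fold. MET14 and MET4 lie to the right and MET6, SAM1 and SAM2 to the left in CR over NR, whereas SAM1 is the filled point in RM over NR.

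MET4, the transcriptional activator of the route, rose in CR and took a middle level in RM. Its log2 signal was 9.06, 8.63 and 8.62 in NR, 10.78, 10.75 and 10.75 in CR, and 9.53, 9.45 and 9.47 in RM. The 3 groups did not overlap, and the SD was 0.02 in CR and 0.04 in RM. MET4 rose 3.98-fold in CR over NR (log2 change 1.99, SE 0.14, adjusted p = 3.21e-06) and was 2.43-fold higher in CR than in RM (log2 change 1.28, adjusted p = 5.38e-05). RM over NR was 0.71 (1.64-fold, adjusted p = 0.00524), short of 2-fold. Without NR replicate 3 the changes against NR were 1.92 in CR and 0.64 in RM.

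Across the 10 genes, the arrays of CR and NR did not overlap for 9, those of RM and NR for 4 and those of CR and RM for 8. The same held for 75.5%, 43.5% and 75.9% of all probe sets. MET14, MET16 and MET4 were higher in CR than in both other groups, and MET2 and MET6 lower, at limma adjusted p under 0.05 in each comparison. For MET2 in CR over NR that p was 0.0302, and it exceeded 0.05 without NR replicate 1 or 2 or any 1 CR replicate. The authors' deposited Tukey p-value for it was 0.119. CR arrays of MET3 also lay above all others, and those of SAM1 and SAM2 below. Their limma adjusted p for CR over RM were 0.072, 0.0635 and 0.365 in the fit over 9 arrays. With only the 6 arrays of CR and RM they were 0.00152, 0.00728 and 0.104. MET5, SAM1 and SAM2 were low in both treatments, with CR over RM intervals of -0.44 to 0.34, -1.57 to -0.06 and -0.46 to 0.15. With NR replicate 3 left out, CR over NR was 0.93 for MET3, 1.28 for MET14, 0.90 for MET16 and -0.65 for MET5 on the log2 scale. Then 5 genes were still called in CR, with MET2 in place of SAM2, and 1 in RM, with MET10 in place of SAM1. Levels are relative to the other transcripts of the same culture, because arrays were normalised to each other. Less RNA per cell and fewer cells that carry it cannot be told apart.

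The genes for the partners of Met4 moved in opposite directions in CR. MET28, a leucine zipper cofactor that steadies Met4 on DNA, read 6.55, 6.26 and 6.45 in NR, 3.64, 3.41 and 3.68 in CR, and 6.70, 7.05 and 6.69 in RM. It fell 7.16-fold in CR over NR (log2 change -2.84, SE 0.15, adjusted p = 1.04e-06) and was 9.42-fold lower in CR than in RM. CBF1, which binds the DNA site that Met4 uses, rose 2.16-fold in CR (log2 change 1.11, SE 0.13, adjusted p = 6.67e-05), from 6.54, 6.22 and 6.09 in NR to 7.38, 7.41 and 7.38. MET30, which marks Met4 with ubiquitin, rose 2.11-fold in CR (log2 change 1.08) and 2.27-fold in RM (log2 change 1.18, adjusted p = 0.0012). Without NR replicate 2 the change of MET30 in CR was 0.94 and was not called. In the list of 6 regulators, 2 were called higher and 1 lower in CR, where 37.8% of all probe sets were called, and 1 higher and 0 lower in RM, where 8.64% were called. MET31 and MET32, zinc finger proteins that bring Met4 to DNA, and the regulator gene GCN4 were picked for mention after their values were seen. None of them was called. MET31 changed by -0.51 in CR (adjusted p = 0.0352) and -0.42 in RM (adjusted p = 0.112). MET32 changed by 0.31 in CR (adjusted p = 0.231) and 0.65 in RM (adjusted p = 0.0423). GCN4 changed by -0.83 in CR (adjusted p = 0.000451) and -0.37 in RM (adjusted p = 0.0594).

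**Figure D3:**
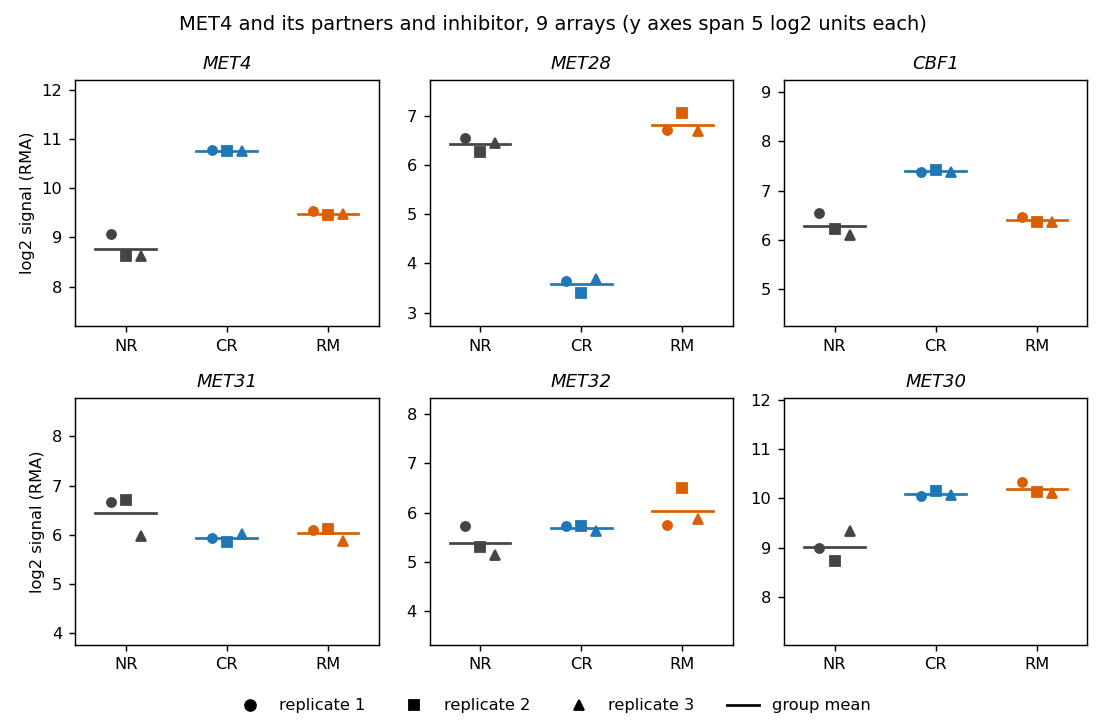
Log2 signal (RMA) of MET4, its partners MET28, CBF1, MET31 and MET32 and the ubiquitin ligase subunit MET30 on the 9 arrays. A line marks each group mean, and axes span 5 log2 units. MET28 lies at 3.41 to 3.68 in CR and at 6.26 or above elsewhere, while MET4 and CBF1 are highest in CR and MET30 is high in both treatments.

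Steps that feed the route moved unevenly. Of the 3 sulfur uptake genes, the sulfate permease gene SUL2 was called in RM, at 2.25-fold higher than NR (log2 change 1.17, adjusted p = 0.0171), but not without NR replicate 3 (0.93) or RM replicate 2 (0.82), nor with the 6 arrays of these groups alone (adjusted p = 0.0525). SOA1, a sulfonate transporter gene, was higher in RM by 0.95 (adjusted p = 0.0272), and was called without NR replicate 3 (1.20, adjusted p = 0.00673) or RM replicate 2 (1.25, adjusted p = 0.00951). SUL2 and SOA1 were lower in CR than in RM, by 3.48-fold and 2.28-fold. SUL2 changed by -0.63 in CR over NR (adjusted p = 0.0877, and 0.0421 with only the 6 arrays of CR and NR). SUL1, the other gene of the 3, read 6.21, 6.69 and 4.10 in NR and 5.93, 5.93 and 5.73 in CR. Its NR replicate 3 lay below every CR array and its other NR arrays above. Of the 3, limma called 0 in CR over NR, with 0 at an unadjusted p under 0.05 and 0 called by the authors' deposited p-values. Over all 5716 probe sets 37.8% were called there, 4124 had an unadjusted p under 0.05, and 2086 were called by the deposited p-values. MET1 and MET8, which make the siroheme of sulfite reductase, and MET22, which clears the by-product of sulfate reduction, were higher in RM by 0.65, 0.84 and 0.92 on the log2 scale, with adjusted p of 0.00495, 0.00932 and 0.0189 and none at 2-fold. Without NR replicate 1 or RM replicate 3, MET22 in RM was 1.15 or 1.14 and was called. In CR, MET8 was 0.88 higher than NR (adjusted p = 0.0022), and 1.03 and called without NR replicate 1. MET22 was 2.76-fold lower in CR than in RM (log2 change -1.46, adjusted p = 0.000744).

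Of the 3 genes of homoserine supply, 2 fell in CR and 0 rose, where 20.0% of all probe sets fell and 17.7% rose. HOM3, the aspartate kinase, read 6.17, 6.30 and 8.24 in NR, 4.11, 4.17 and 4.42 in CR, and 6.75, 5.79 and 6.63 in RM, a fall of 6.36-fold in CR over NR (log2 change -2.67, adjusted p = 0.00104). Without NR replicate 3, its highest array, the change was -2.0. HOM2, the next enzyme, fell 4.88-fold (log2 change -2.29, adjusted p = 0.000948), and HOM6 was 1.52-fold lower, not called. In RM over NR limma called 0 of the 3, with 1 at an unadjusted p under 0.05 and 0 called by the authors' deposited p-values, although HOM2 at -1.04 (adjusted p = 0.0796) was called without NR replicate 1 (-1.48, adjusted p = 0.0114) and with the replicate number as a block (adjusted p = 0.0496). Among all 5716 probe sets in RM over NR, 8.64% were called, 2707 had an unadjusted p under 0.05, and 439 were called by the deposited p-values. HOM2 and HOM3 were also lower in CR than in RM, by 2.38-fold and 4.46-fold. That call for HOM2 had an adjusted p of 0.0288, and 0.0613 to 0.0953 when CR replicate 1, 2 or 3 or RM replicate 1 or 3 was left out.

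Of 5 genes that exchange sulfur between homocysteine and cysteine, CYS3, cystathionine gamma-lyase, fell 2.19-fold in CR (log2 change -1.13, adjusted p = 0.00344), and by 0.77 without NR replicate 3, no longer called. STR2 and STR3, which work toward homocysteine from cysteine, changed by 0.97 and -0.86 in CR, both short of 2-fold. STR2 was called without NR replicate 1 (1.05) or 2 (1.02), and STR3 without NR replicate 2 (-1.01). STR2 was 2.2-fold higher in CR than in RM (log2 change 1.14, adjusted p = 0.000271). CYS4, cystathionine beta-synthase, changed by -0.12 in CR. IRC7 read 1.80 to 2.22 in CR, near the signal of the deleted LEU2, and 2.06, 2.47 and 4.30 in NR, so no fold is given for it. It was not called, and was called without NR replicate 1. In RM over NR limma called 0 of the 5, with 0 at an unadjusted p under 0.05 and 0 called by the authors' deposited p-values. Over all 5716 probe sets 8.64% were called there, 2707 had an unadjusted p under 0.05, and 439 were called by the deposited p-values.

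The folate arm supplies the methyl group that MET6 uses. Of its 7 genes, SHM2, the cytosolic serine hydroxymethyltransferase, fell 4.0-fold in CR (log2 change -2.0, adjusted p = 0.000211), and MET12, a methylenetetrahydrofolate reductase, rose 2.43-fold (log2 change 1.28, adjusted p = 0.000147). SHM2 was also 2.67-fold lower in CR than in RM. In RM over NR limma called 0 of the 7, with 2 at an unadjusted p under 0.05 and 0 called by the authors' deposited p-values. Of all 5716 probe sets 8.64% were called there, 2707 had an unadjusted p under 0.05, and 439 were called by the deposited p-values. Leaving out NR replicate 1 added ADE3 in CR (-1.35) and MTD1 in RM (-1.18) to the calls, and MTD1 was also called without NR replicate 2 (-1.02) or RM replicate 3 (-1.03).

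Downstream of SAM, the gene that clears its product fell with SAM1. SAH1, S-adenosylhomocysteine hydrolase, read 6.75, 7.11 and 8.80 in NR, 4.43, 4.49 and 4.49 in CR, and 6.28, 5.62 and 6.05 in RM. The 3 groups did not overlap. SAH1 fell 8.49-fold in CR (log2 change -3.09, adjusted p = 0.000216) and 2.97-fold in RM (log2 change -1.57, adjusted p = 0.0243), and was 2.86-fold lower in CR than in RM (adjusted p = 0.0157, and 0.0587 without RM replicate 1). Without NR replicate 3 the changes were -2.46 in CR and -0.95 in RM, the latter no longer called. The call in RM was also lost without RM replicate 2 (adjusted p = 0.0847), without RM replicate 3 (adjusted p = 0.053) and with the 6 arrays of RM and NR alone (adjusted p = 0.0658). MHT1, which remakes methionine from S-methylmethionine, was higher in CR by 1.0 (adjusted p = 0.00113), just short of the limit, and was called without NR replicate 1 (1.22) or CR replicate 3 (1.04).

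Methionine salvage, which rebuilds methionine from the methylthioadenosine left by polyamine synthesis, had 4 of 6 genes lower in CR and 0 higher, where 20.0% of all probe sets were lower and 17.7% higher. MEU1, the phosphorylase that opens the cycle, read 7.84, 7.53 and 7.60 in NR, 5.51, 5.46 and 5.42 in CR, and 8.42, 8.88 and 8.14 in RM. CR lay below and RM above every NR array. MEU1 fell 4.57-fold in CR (log2 change -2.19, SE 0.18), was 0.82 higher in RM (adjusted p = 0.00949, short of 2-fold) and was 8.10-fold lower in CR than in RM. ADI1, the acireductone dioxygenase, fell 4.90-fold in CR (log2 change -2.29). In RM it changed by -1.02 (adjusted p = 0.0138), and by -0.88, -0.82 and -0.98 without NR replicate 1, NR replicate 2 and RM replicate 1, not called, and its adjusted p was 0.0508 with the 6 arrays of RM and NR alone.

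Among 5 permease genes, SAM3, the SAM permease, fell 2.44-fold in CR (log2 change -1.28) and was 2.41-fold lower in CR than in RM. The high-affinity methionine permease gene MUP1 was lower by 0.56 and the low-affinity MUP3 higher by 0.79 in CR, both short of 2-fold. The cysteine transporter gene YCT1 read 7.92 in NR replicate 3 against 6.11 and 6.03, and changed by 0.49 in CR, or by 1.11 and called without that array. In CR over RM it was 1.05 (adjusted p = 0.0615), and was called with the replicate block (adjusted p = 0.0344), with the 6 arrays of CR and RM alone (adjusted p = 0.000206) and without NR replicate 3 (adjusted p = 9.58e-05). Of 4 glutathione genes, GSH1, the rate-limiting gamma-glutamylcysteine synthetase, read 8.35, 8.0 and 8.24 in NR, 10.05, 10.13 and 10.14 in CR, and 8.77, 8.99 and 8.31 in RM. GSH1 rose 3.76-fold in CR over NR (log2 change 1.91, SE 0.18, adjusted p = 1.61e-05), while GSH2, the next step, changed by -0.35, not called. In RM over NR limma called 0 of the 5 permease genes and 0 of the 4 glutathione genes. Of these, 2 and 3 had an unadjusted p under 0.05, and 0 were called by the authors' deposited p-values. Among all 5716 probe sets 8.64% were called there, 2707 had an unadjusted p under 0.05, and 439 were called by the deposited p-values.

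All 3 genes linked to other sulfur sources were called in CR, as were 37.8% of all probe sets. JLP1, a sulfonate dioxygenase, fell 2.36-fold, and PDC6, a pyruvate decarboxylase that is low in sulfur amino acids, fell 8.41-fold (log2 change -3.07, and -2.35 without NR replicate 3). BDS1, a sulfatase for alkyl and aryl sulfates, rose 2.43-fold in CR (log2 change 1.28, adjusted p = 0.000423) and 2.63-fold in RM (log2 change 1.39, adjusted p = 0.00178). PDC6 changed by 0.36 in RM over NR, and by 1.08 without NR replicate 3 (adjusted p = 0.00185), which was called. It was 10.8-fold lower in CR than in RM. JLP1 was 2.15-fold lower in CR than in RM, and by -0.98 on the log2 scale without CR replicate 3, not called.

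Over the 49 genes of these lists other than MET17, 5 were higher and 13 lower in CR than in NR, 36.7% of them beside 37.8% of all probe sets. In RM over NR 3 were higher and 2 lower, 10.2% beside 8.64%. In CR over RM 2 were higher and 14 lower, 32.7% beside 26.1%, where 12.6% of all probe sets were higher and 13.5% lower. Leaving out NR replicate 3 moved the split to 6 higher and 12 lower in CR over NR, with YCT1 gained and CYS3 lost, and to 4 higher and 1 lower in RM over NR, with PDC6 and SOA1 gained and SAH1 and SUL2 lost. The median log2 change was -0.35, -0.10 and -0.34 in the 3 comparisons, and 0.02, -0.05 and 0.00 over all probe sets.

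**Figure D4:**
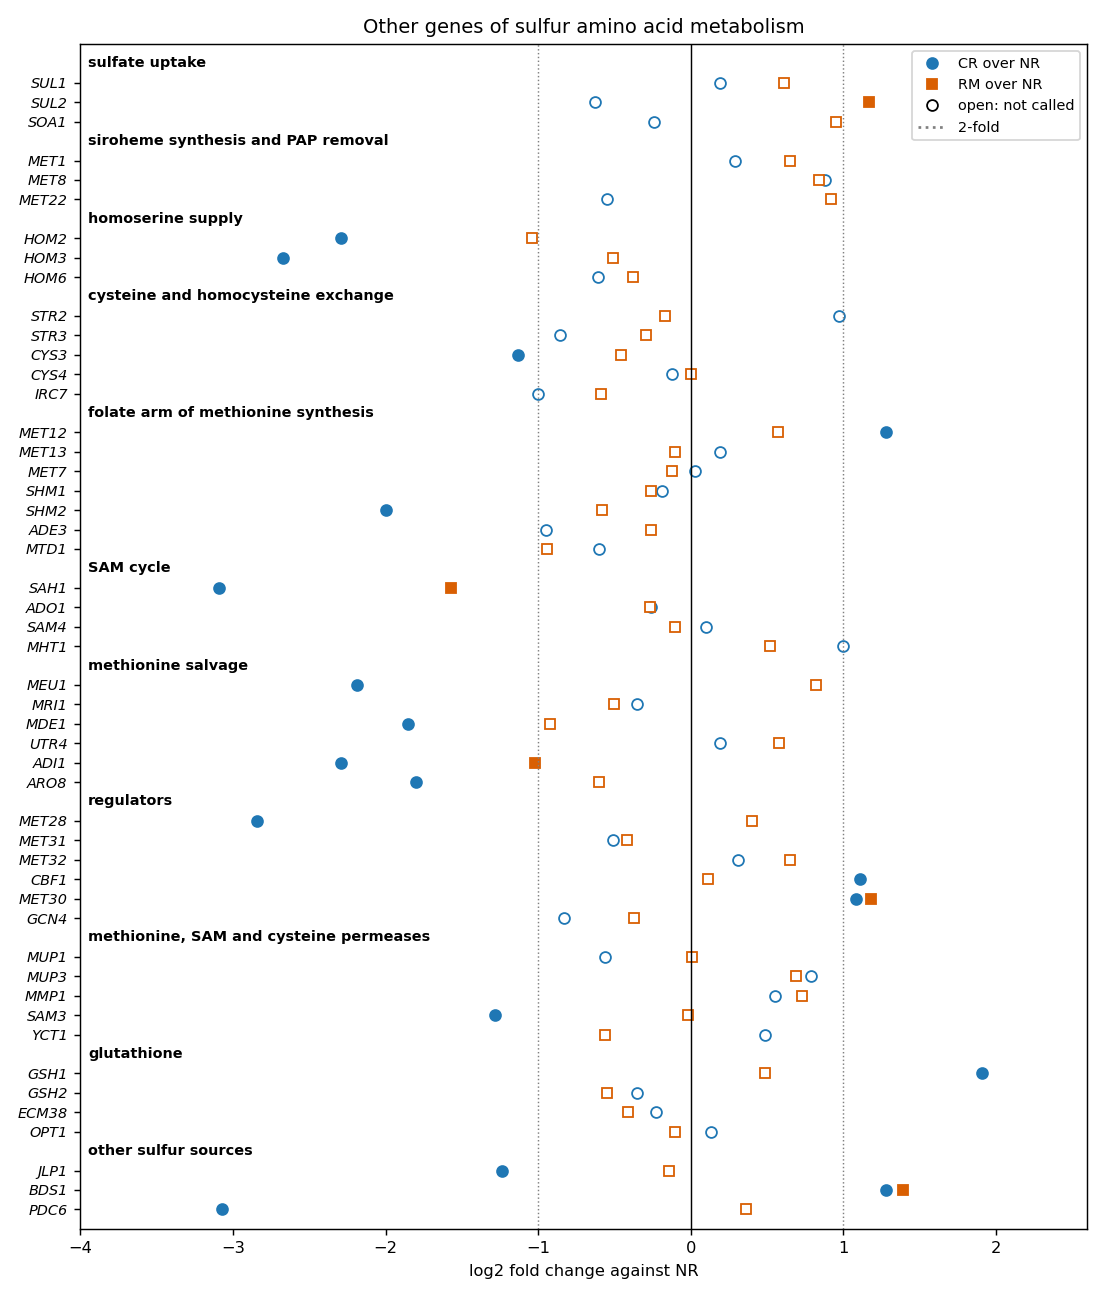
Log2 fold change against NR of 49 other genes of sulfur amino acid metabolism, grouped by step, with blue circles for CR and orange squares for RM. Filled symbols were called at an adjusted p under 0.05 and at least 2-fold. In CR 13 filled circles lie left of 0 and 5 right of it, with SAH1 at -3.09 and GSH1 at 1.91 at the ends, and in RM 5 squares are filled.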

How the data were processed

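Each of the 9 arrays is 1 column of log2 signals that the authors deposited. RMA (background correction, quantile normalization and probe summary) and Transcriptome Analysis Console 2.0 are named per the submitters' processing notes, without their roles. The authors' deposited table of signed fold changes and p-values gave the open reading frames. In all 5716 probe sets the log2 of its folds equalled differences of group means within 1e-08. Its deposited p-values above 1e-05 equalled Tukey p-values from the arrays (3 groups, 6 residual degrees of freedom) within 1%.

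All probe sets were fitted with limma 3.58.1 (R 4.3.3), with 1 mean per group over 9 arrays, eBayes and Benjamini-Hochberg adjustment per comparison. The script was tested on simulated data. Symbols came from RefSeq R64 (5646 genes matched, 21 did not). Where a gene had several probe sets, the one listed at the top was used. No detection call was used, so a low signal could not be told apart from background. Members and 12 lists were chosen with earlier results of these data known. From the lists, called genes were named, at most the 2 highest and 2 lowest per comparison, and any gene of lists of up to 5. Replicate numbers were not used as pairs in the main fit. Same-numbered deviations correlated at -0.20 to 0.35, highest for replicate 3 of NR with RM. These correlations cannot show whether arrays of the same number shared a batch, which the labels do not state. Alternatives were a replicate block, single arrays left out, other fold limits, the deposited p-values, an intensity trend, median centring, dim probe sets left out, probe sets averaged and, added after seeing the data, two-group fits. Coordinates are left out, as no build is named for the array.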

Additional observations from a re-analysis of the deposited data

How the results depend on the processing

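Without a fold limit, 9, 5 and 5 of the 10 genes were called in the comparisons CR over NR, then RM over NR, then CR over RM, beside 3941, 2120 and 3211 probe sets and 29, 19 and 23 list genes. With a limit of 1.5-fold these were 9, 5 and 5 members, 3316, 1480 and 2640 probe sets and 26, 16 and 19 list genes. Leaving out the 25% of probe sets with the lowest mean signal removed MET3, MET16 and SAM1, and kept 7 members and 39 of the 49 list genes. In RM over NR this gave 0 members, 3 list genes and 341 of 4287 probe sets. Two-group fits, with all members and list genes kept, gave 0, 2 and 414 of 5716 there. With the replicate block 5, 1 and 4 members and 2163, 502 and 1497 probe sets were called, and no member's call changed. The deposited p-values also gave 5, 1 and 4 members.

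With single arrays left out, members called ranged from 4 to 5, 0 to 2 and 4 to 5, list genes from 18 to 23, 4 to 8 and 14 to 17, and probe sets from 1957 to 2394, 379 to 789 and 1397 to 1541. In RM over NR, 789 probe sets were called without NR replicate 1. SAM2 minus SAM1 ranged from 0.73 to 1.32, 0.06 to 0.65 and 0.52 to 0.83. MET6 in RM over NR ranged from -0.69 to 0.12 and MET5 in CR over RM from -0.13 to 0.02. The sign turned for MET6 without NR replicate 3 (0.12) and for MET5 without CR replicate 2 (0.02) or RM replicate 3 (0.01), none of them called. The cause of these changes was not tested.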
